A study of Mus musculus with 8 samples.

Results

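The comparison described here sets the 4 arrays of mouse gut with Nanog overexpression against the 4 arrays without it, intestine and colon together, with the tissue as a term of the model. Its members are the genes read above background on all 4 arrays of at least 1 side, where above background means a detection p-value under 0.01. 7444 of the 16590 genes on the array met that rule, so a gene expressed in 1 tissue alone did not enter. The side with Nanog held 2 arrays of intestine and 2 of colon labelled as overexpressing Nanog, and the side without held 2 of intestine and 2 of colon labelled as not overexpressing it. The series calls the 2 arrays of a group biological replicates. The strain, the age, the promoter or vector that drove Nanog, how long it was expressed, and whether an intestine and a colon sample came from the same animal are not stated in the sources used. Total RNA, 300 ng per sample, was amplified to biotin-labelled cRNA over 12 h and read on Illumina bead arrays, where beads that carry a probe glow in proportion to the transcript they capture. Levels below are normalized log2 intensities, and a difference of 1 log2 unit is a doubling. They are comparable for 1 probe between arrays and not between probes.

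Nanog is a homeobox transcription factor that holds embryonic stem cells and the early embryo in the pluripotent state and is not part of the normal program of the adult gut. The lining of intestine and colon is renewed from stem cells at the base of crypts, under Wnt and Notch signals there and BMP signals toward the surface, and lies on connective tissue, muscle and resident immune cells that bulk RNA also contains. In such RNA, fewer cells of a type and less RNA per cell cannot be told apart.

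None of the 8 arrays read the probe of Nanog itself above background, and its detection p-value lay between 0.172 and 0.817. Its deposited signal was 85.2 ± 3.38 (SD, n = 4) with Nanog and 91.9 ± 2.74 (SD, n = 4) without. Whether the overexpressed transcript holds the stretch that this probe matches is unknown here, which leaves the labels unchecked by it. A probe that carries no gene name in the annotation used here, ILMN_2923874, did separate the sides. Its deposited signal was 104.6 and 92.8 in intestine and 88.4 and 100.1 in colon without Nanog, and 4756 and 4012 in intestine and 5791 and 4833 in colon with Nanog. It was below background on all 4 arrays without Nanog and above it on all 4 with Nanog. Taken against the dimmest signal above background on each array, it stood at least 151.5-fold higher after background correction and at least 49.2-fold higher without it (adjusted p = 6.20e-08 over 10213 probes, limma's moderated test on corrected values), the smallest p of all probes that met the detection rule. The normalized difference was 7.81 ± 0.16 log2 units (SE). 11 of 566 such unnamed probes passed an adjusted p of 0.05, or 1.94%, 10 higher and 1 lower with Nanog.

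**Figure D1:**
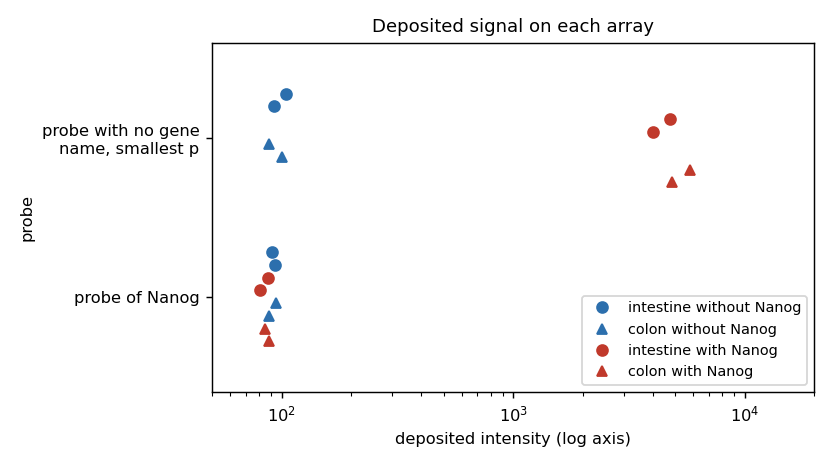
Deposited intensity, on a log axis, of the Nanog probe (lower row) and of the unnamed probe with the smallest p (upper row), with 1 point per array. The unnamed probe lies between 4012 and 5791 on the 4 arrays with Nanog and between 88.4 and 104.6 on the 4 without, while the Nanog probe lies below background on all 8.

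Across the 7444 genes 131, or 1.76%, differed between the sides at a Benjamini-Hochberg adjusted p under 0.05 in limma's moderated test, and these are called rises or falls below. 77 rose with Nanog (1.03%) and 54 fell (0.725%). The median called rise was 1.50 log2 units and the median called fall -1.36, against a median of -0.01 over all genes tested. 63 rises and 48 falls were larger than 2-fold, and the smallest called differences were 0.77 and -0.74. In all 131 genes the arrays with Nanog of each tissue lay beyond both controls of that tissue in the same direction, which held for 15.5% of all genes tested. In 107 of the 131 the 4 arrays with Nanog also lay wholly above or wholly below the 4 without, against 7.32% of all genes. Both counts rest on the same values that made the calls, and a small p favours such separation, so they are not independent evidence. 1336 genes (17.9%) had an unadjusted p under 0.05, and 49.3% of all genes tested stood higher with Nanog, the share to hold beside the counts of list members below.

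The detection rule itself shapes part of these calls. 802 genes passed through 1 side only, 313 on the side with Nanog and 489 on the side without. Such genes were favoured to read higher on that side but did not have to. They hold 39 of the calls, 18 rises and 21 falls, while 92 calls (59 rises and 33 falls) fell on the 6642 genes detected on all 8 arrays, or 1.39%. At the edge of the rule, the largest detection p on the better side was 0.008772 in the 70 genes just inside, such as Aebp2 with a mean level of 5.66 with and 5.59 without Nanog. It was 0.010025 in the 85 genes just outside, such as Abi3bp with 6.05 and 6.09. For 32 of the called genes the array holds further detected probes, 45 in all, and 44 of these differed in the same direction as the probe used. Of the 44, 24 were past the threshold, which 1.77% of all named probes tested passed.

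The counts depend on a few arrays. Across genes, arrays of a group correlated with r = 0.908 to 0.976 and arrays of the same number in the sides of a tissue with r = 0.929 to 0.942. Between 10652 and 11993 probes per array were above background and the median signal was 84.6 to 107.7. The 9 tested markers of gut epithelium averaged 10.73 to 11.62 on every array, and the 4 tested markers of small intestinal enterocytes averaged 9.40 to 12.11 in intestine and 7.37 to 7.84 in colon. Genes of pancreatic acinar cells, which make digestive enzymes, varied far more. Summed over the 17 of 19 such markers on the array, the normalized intensity was 3319 and 25758 in intestine and 24478 and 15986 in colon without Nanog, and 8399 and 325993 in intestine and 27124 and 230493 in colon with Nanog. In colon 1 marker, Sycn, read 14.54 and 13.35 log2 units without Nanog and 14.50 and 14.06 with Nanog. It made up most of the sum on every colon array but replicate 2 with Nanog. The 2 highest sums were replicate 2 of both groups with Nanog, and 5 of the 17 markers were above background on each replicate 1 other than that of colon with Nanog, where all 17 were. With these 2 Nanog arrays left out, 8 genes were called (7 rises and 1 fall, with 666 at an unadjusted p under 0.05), all 131 differences kept their sign, and the median ratio of the new difference to the first was 0.98. With the mean of the 5 tested pancreatic markers as a covariate 19 were called, 12 higher and 7 lower, 18 of them among the 131. Of the genes named here, Csrp1, Depp1, Fkbp5, Tom1l2 and Tor1aip2 rose and Pdrg1 fell past the threshold in both of these fits. Both fits were chosen after the data were seen.

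Single arrays also moved the count. It was 339 without replicate 2 of intestine without Nanog, which holds 130 of the 131 genes, 161 and 107 without replicate 1 of intestine with and without Nanog, and 57 without replicate 2 of intestine with Nanog. Without 1 colon array it was 25 and 22 for the controls and 37 and 22 for the arrays with Nanog. 14 genes were called in all 8 of these fits: Csrp1, Ddit4, Depp1, Fam107a, Fkbp5, Tom1l2, Tor1aip2 and Tsc22d3 rose, and Id1, Id4, Pdrg1, Slco4a1, Smad6 and Tenm4 fell. Fam107a and Tenm4 are named for this count alone, after their values were seen. All 131 differences kept their sign in all 8 fits, which was fixed beforehand. In each of these genes both Nanog arrays of a tissue lay beyond both controls of that tissue. Leaving arrays out, also both Nanog replicates 2 together, could therefore not turn the sign. With the replicate number as a block within each tissue the count was 242, 115 higher and 127 lower, and 126 of the 131 were among them. Under median scaling, where the median of all genes was -0.18, the split of 96 calls was 37 higher and 59 lower.

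**Figure D2:**
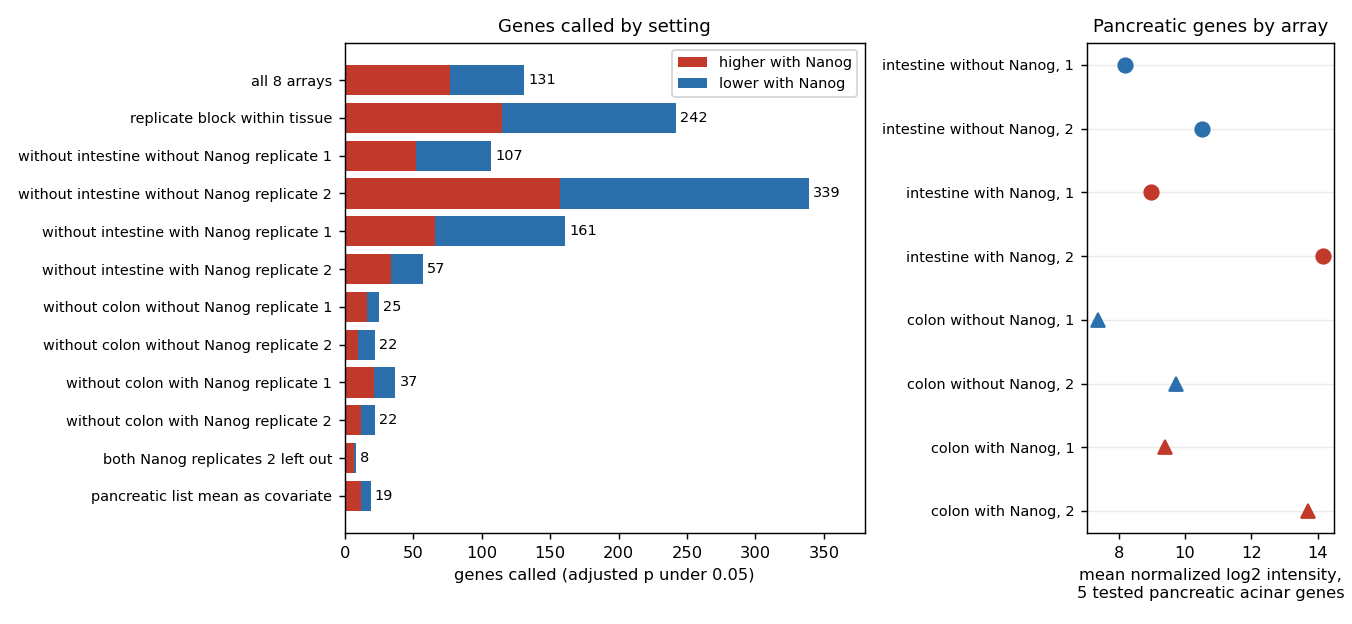
Left, the number of genes called at an adjusted p under 0.05 (x axis, genes) with all 8 arrays, with each array left out, with the replicate block and in the 2 fits chosen after the data were seen, split into rises and falls. Right, the mean level (normalized log2 intensity) of 5 tested pancreatic acinar genes on each array, highest at 14.16 and 13.71 on replicate 2 of intestine and colon with Nanog.

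Csrp1, Tor1aip2 and Pdrg1 had the smallest adjusted p of all genes tested. Csrp1 encodes a LIM-domain protein that binds the actin cytoskeleton. Csrp1 read 5.50 and 4.68 in intestine and 6.58 and 6.50 in colon without Nanog, and 10.69 and 10.37 in intestine and 10.95 and 10.99 in colon with Nanog. The sides were 3.80 log2 units apart at their closest, and 3 of the 4 arrays without Nanog were above background. Csrp1 rose by 4.94 ± 0.26 log2 units (SE, adjusted p = 0.000191). Tor1aip2, which encodes a partner of the torsin ATPases in the endoplasmic reticulum and nuclear envelope, read 4.64 and 4.69 in intestine and 4.35 and 4.33 in colon without Nanog, and 7.87 and 8.16 in intestine and 6.97 and 7.29 in colon with Nanog. It was below background on all 4 arrays without Nanog and above on all 4 with it, at least 5.56-fold higher (adjusted p = 0.000191), or 2.49-fold without background correction. Another probe of Tor1aip2, above background on all 8 arrays, differed by 0.03 log2 units. Tom1l2, an adaptor protein of endosomal sorting, was likewise below background on the 4 arrays without Nanog, at 4.43 to 4.96, and at 7.29 to 8.62 with Nanog, at least 7.17-fold higher (adjusted p = 0.000679), or 3.01-fold without background correction.

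The falls with the smallest p were those of Pdrg1 and Slco4a1. Pdrg1, a prefoldin-like protein first described as regulated by p53 and DNA damage, read 6.57 and 6.66 in intestine and 6.92 and 7.08 in colon without Nanog, and 4.31 and 4.28 in intestine and 4.30 and 4.29 in colon with Nanog. It was below background on all 4 arrays with Nanog and above on all 4 without, at least 3.18-fold lower with Nanog (adjusted p = 0.000191), or 1.72-fold without background correction. Slco4a1, an organic anion transporter that carries thyroid hormones, read 7.03 and 7.28 in intestine and 6.18 and 5.91 in colon without Nanog, and 5.54 and 4.92 in intestine and 4.34 and 4.39 in colon with Nanog. It was above background on 1 of the 4 arrays with Nanog and fell by 1.80 ± 0.18 log2 units (SE, adjusted p = 0.00530). Each of these 5 genes passed whichever array was left out, with adjusted p up to 0.00757 for Tom1l2 and 0.0285 for Slco4a1.

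The start regions of the 2 genes with the smallest p in each direction are shown as context for the calls with the smallest p. Which start the transcript read by each probe has is not known here. They are RefSeq windows of 250 bases before to 50 after a start, on build GRCm38.p6, read 5′ to 3′ along the gene. Capitals mark matches, on either strand, to 6 short motifs: CACGTG (E-box, bound by clock and other basic helix-loop-helix factors), TTATGTAA (D-box, bound by Dbp and Nfil3), TGTTTAC (forkhead), TGTTCT (a steroid receptor half-site), AGGTCA (a nuclear receptor half-site) and TAATGG (homeobox). Where a gene has several starts, the first window with a match is given, or the first where there is none.
Csrp1, chr1:135728917-135729216, plus strand: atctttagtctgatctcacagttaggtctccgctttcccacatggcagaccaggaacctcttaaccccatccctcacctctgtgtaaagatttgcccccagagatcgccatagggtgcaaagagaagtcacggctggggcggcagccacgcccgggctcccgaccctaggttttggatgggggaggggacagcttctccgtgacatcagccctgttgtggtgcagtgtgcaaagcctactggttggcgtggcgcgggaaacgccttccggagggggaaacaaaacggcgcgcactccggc
Tor1aip2, chr1:156040590-156040889, plus strand: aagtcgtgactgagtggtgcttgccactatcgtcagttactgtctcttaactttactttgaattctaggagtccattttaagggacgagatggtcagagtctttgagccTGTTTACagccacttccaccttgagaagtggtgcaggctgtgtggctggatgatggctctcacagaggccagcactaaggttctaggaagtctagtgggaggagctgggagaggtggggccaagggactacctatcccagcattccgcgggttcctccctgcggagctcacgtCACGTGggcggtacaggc
Pdrg1, chr2:153015334-153015633, minus strand: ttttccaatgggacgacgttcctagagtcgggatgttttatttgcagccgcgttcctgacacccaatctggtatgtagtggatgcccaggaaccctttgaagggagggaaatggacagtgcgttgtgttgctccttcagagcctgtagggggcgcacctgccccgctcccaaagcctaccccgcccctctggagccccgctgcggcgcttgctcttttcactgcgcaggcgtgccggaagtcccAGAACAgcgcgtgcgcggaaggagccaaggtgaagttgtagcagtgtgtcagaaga
Slco4a1, chr2:180460728-180461027, plus strand: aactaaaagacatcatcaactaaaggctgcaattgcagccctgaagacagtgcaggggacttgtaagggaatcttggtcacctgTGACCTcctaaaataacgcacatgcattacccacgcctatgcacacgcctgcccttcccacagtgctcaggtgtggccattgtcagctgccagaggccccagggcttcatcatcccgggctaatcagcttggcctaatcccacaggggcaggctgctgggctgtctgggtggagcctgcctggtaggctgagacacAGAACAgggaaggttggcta
Csrp1 holds none of the 6 motifs in either of its 2 windows. In Tor1aip2 a forkhead motif begins 141 bases before the start and an E-box at base 33 after it. Pdrg1 holds the steroid receptor half-site directly before its start, 6 bases upstream and in reverse orientation. Slco4a1 holds a nuclear receptor half-site 166 bases before and a steroid receptor half-site at base 31 after its start.

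Such short motifs are common, so they are read against their share among other promoters. Windows were found for 105 of the 131 called genes. TGTTCT was in 22.0% of 82 windows of called rises and 21.1% of 57 windows of called falls, against 12.9% of 7858 windows of all genes tested and 19.0% of all 32851 windows. TGTTTAC was in 6.10% of the windows of rises and 0% of those of falls, or 0 of 57, against 2.62% of the windows of genes tested. CACGTG was in 6.10% and 8.77%, against 10.1%, AGGTCA in 14.6% and 7.02%, against 12.4%, and TAATGG in 6.10% and 3.51%, against 4.91%. TTATGTAA was in 1.22% and 0%, against 0.484%. These shares were not tested, windows of a gene overlap, and a match is a description of letters, not of a bound site.

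Glucocorticoid hormones act through a nuclear receptor that, once bound, raises a well-known group of genes in most tissues. 10 of the 11 tested genes of that group stood higher with Nanog, with a median of 1.41 log2 units against -0.01 for all genes, and 4 of them rose past the threshold. 1 of the 11 met the detection rule through the arrays with Nanog alone, which favoured a higher value with Nanog. Fkbp5, which encodes a chaperone partner that restrains the receptor, read 5.54 and 6.73 in intestine and 6.94 and 7.43 in colon without Nanog, and 11.44 and 11.56 in intestine and 11.30 and 10.98 in colon with Nanog. The sides were 3.55 log2 units apart at their closest, and Fkbp5 rose by 4.66 ± 0.36 log2 units (SE, adjusted p = 0.000693), the largest called rise among genes detected on all 8 arrays. Tsc22d3, the leucine-zipper protein GILZ that mediates much of the anti-inflammatory action of these hormones, read 10.48 and 10.76 in intestine and 10.09 and 10.72 in colon without Nanog, and 12.30 and 11.94 in intestine and 12.43 and 12.17 in colon with Nanog. It rose by 1.70 ± 0.20 log2 units (SE, adjusted p = 0.0109), with all 4 arrays with Nanog above all 4 without. Errfi1, an inhibitor of EGF receptor signalling, rose by 1.59 ± 0.29 log2 units (SE, adjusted p = 0.0368), and Sgk1, a kinase that promotes sodium uptake, by 1.46 ± 0.26 log2 units (SE, adjusted p = 0.0357). The other 7 were not called, among them Sult1a1 at 1.56, the metallothioneins Mt2 at 1.41 and Mt1 at 1.18, Dusp1 at 0.28, Per1 at 0.21 and Klf9 at -0.16. Fkbp5 and Tsc22d3 passed whichever array was left out, with adjusted p up to 0.00658 and 0.0465. Errfi1 missed the threshold without intestine Nanog 1, intestine Nanog 2 or any 1 of the colon arrays (up to 0.133), and Sgk1 without intestine control 1, intestine Nanog 1 or any 1 of the colon arrays (up to 0.131).

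Genes that fasting raises through the fatty acid receptor PPARA held a few large rises. 3 of 9 tested members rose, and the median of the list was 0.54. 1 of the 9 met the detection rule through the arrays with Nanog alone, which favoured a higher value with Nanog. A further 3 members on the array did not meet it. Pdk4, the kinase that blocks pyruvate oxidation when fat is burned, read 6.41 and 8.89 in intestine and 6.03 and 5.38 in colon without Nanog, and 10.96 and 11.66 in intestine and 9.75 and 9.81 in colon with Nanog. The highest control, replicate 2 of intestine, was still below the lowest array with Nanog, and Pdk4 rose by 3.87 ± 0.48 log2 units (SE, adjusted p = 0.0115). Angptl4, a secreted protein that blocks lipoprotein lipase, read 7.52 and 8.42 in intestine and 7.22 and 7.80 in colon without Nanog, and 12.74 and 11.90 in intestine and 9.47 and 10.11 in colon with Nanog. It rose by 3.31 ± 0.46 log2 units (SE, adjusted p = 0.0139) without overlap of the sides. Acot1, which cleaves fatty acyl-CoA in the cytosol, rose by 1.67 ± 0.31 log2 units (SE, adjusted p = 0.0397). The remaining 6 were Acot2 at 1.17, Acadl at 0.54, Slc25a20 at 0.49, Ehhadh at 0.27, Acadm at 0.07 and the lipid droplet protein Plin2 at -0.50, none of them called. Pdk4 missed the threshold without colon control 2 or colon Nanog 2 (adjusted p up to 0.0526), Angptl4 without colon control 1 or colon Nanog 2 (up to 0.0623), and Acot1 without intestine Nanog 1, intestine Nanog 2 or any 1 of the colon arrays (up to 0.109).

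FoxO transcription factors are active when insulin signalling is low, and several of their targets restrain the growth kinase mTORC1. 10 of 13 tested genes of this group stood higher with Nanog, 4 of them past the threshold, and the median was 0.77. 2 of the 13, Eif4ebp3 among them, met the detection rule through the arrays with Nanog alone, which favoured higher values with Nanog. A further 4 genes of the group on the array did not meet it. Depp1, a FoxO target linked to autophagy, read 5.54 and 6.13 in intestine and 5.88 and 6.11 in colon without Nanog, and 8.78 and 8.94 in intestine and 8.86 and 8.63 in colon with Nanog. The arrays of each side spanned 0.31 and 0.60 log2 units with and without Nanog, the sides lay 2.50 apart, and Depp1 rose by 2.89 ± 0.18 log2 units (SE, adjusted p = 0.000244). Ddit4, also called REDD1, an inhibitor of mTORC1, read 8.08 and 8.01 in intestine and 8.95 and 9.20 in colon without Nanog, and 11.67 and 11.13 in intestine and 11.25 and 11.03 in colon with Nanog, and rose by 2.71 ± 0.28 log2 units (SE, adjusted p = 0.00530). Eif4ebp3, a repressor of cap-dependent translation, read 5.68 and 4.89 in intestine and 7.45 and 7.31 in colon without Nanog, and 9.0 and 8.90 in intestine and 9.37 and 9.05 in colon with Nanog. It was above background on 3 of the 4 controls and rose by 2.75 ± 0.37 log2 units (SE, adjusted p = 0.0139). Sesn1, a sestrin that senses leucine and restrains mTORC1, rose by 1.50 ± 0.27 log2 units (SE, adjusted p = 0.0357), with levels that differ between tissues enough that its sides overlapped only across tissues. Gabarapl1 at 1.07, Txnip at 1.02, Eif4ebp1 at 0.77, Irs2 at -0.52 and Ccng2 at -0.68 were among the 9 not called. Depp1 and Ddit4 passed whichever array was left out, with adjusted p up to 0.00290 and 0.0256, while Eif4ebp3 reached 0.0502 without colon control 2 and Sesn1 missed the threshold without intestine Nanog 1, intestine Nanog 2 or any 1 of the colon arrays, with adjusted p up to 0.131.

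**Figure D3:**
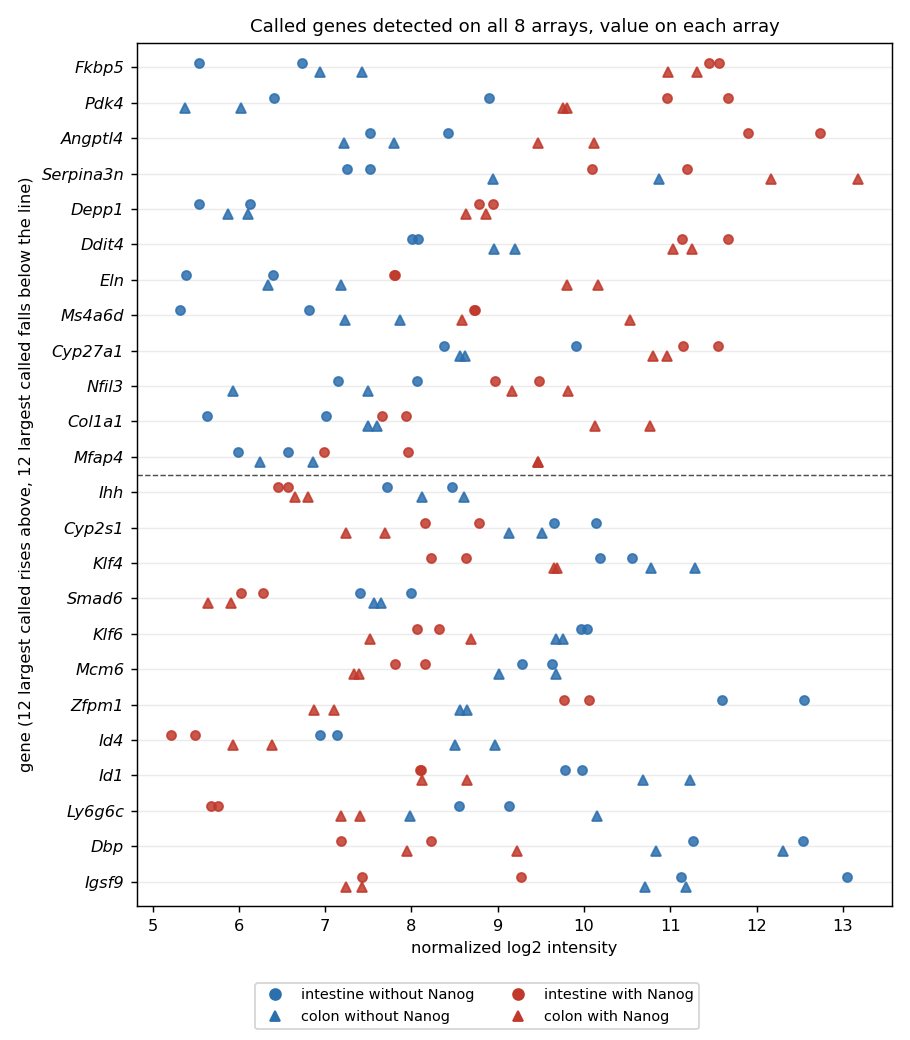
Normalized log2 intensity (x axis) of the 12 largest called rises and 12 largest called falls among genes detected on all 8 arrays (y axis), with 1 point per array, circles for intestine and triangles for colon. In Fkbp5 the 4 arrays with Nanog lie between 10.98 and 11.56 and the 4 without between 5.54 and 7.43, whereas in Serpina3n and Zfpm1 the sides separate within each tissue and overlap across tissues.

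The largest called rise was that of Lcn2, an iron-sequestering protein that epithelia release in inflammation. Of 14 genes of inflamed epithelium and neutrophils on the array, 2 met the detection rule, Lcn2 and Saa3, both through the arrays with Nanog alone. The other 12, among them S100a8, S100a9, Reg3b, Nos2, Cxcl1 and Il1b, did not. Lcn2 read 4.33 and 5.44 in intestine and 4.75 and 5.48 in colon without Nanog, and 12.13 and 10.59 in intestine and 8.11 and 11.94 in colon with Nanog. Its arrays with Nanog spanned 4.03 log2 units, lowest on replicate 1 of colon, 2 of the 4 controls were above background, and Lcn2 rose by 5.69 ± 0.80 log2 units (SE, adjusted p = 0.0139). Outside that list, haptoglobin, Hp, which binds free haemoglobin, read 4.86 and 4.53 in intestine and 4.73 and 5.48 in colon without Nanog, and 8.43 and 9.82 in intestine and 7.29 and 11.20 in colon with Nanog. It was above background on 1 of the 4 controls and rose by 4.28 ± 0.74 log2 units (SE, adjusted p = 0.0299). Serpina3n, also outside it, a serine protease inhibitor induced by inflammation and glucocorticoids, read 7.51 and 7.25 in intestine and 10.87 and 8.94 in colon without Nanog, and 11.19 and 10.09 in intestine and 12.16 and 13.18 in colon with Nanog. It rose by 3.01 ± 0.45 log2 units (SE, adjusted p = 0.0160), although colon without Nanog overlapped intestine with Nanog. Saa3, a serum amyloid protein, stood apart on replicate 2 of colon with Nanog at 11.83, against 5.64 to 6.81 on the other arrays with Nanog and 4.53 to 5.09 without, and its difference of 2.83 ± 1.07 (SE, adjusted p = 0.210) was not called. Lcn2 missed the threshold without colon control 1, colon control 2 or colon Nanog 2 (adjusted p up to 0.0646), Hp without intestine control 1, intestine Nanog 2, colon control 1, colon control 2 or colon Nanog 2 (up to 0.111) and Serpina3n without colon control 2 or colon Nanog 2 (up to 0.0644).

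Genes of fibroblasts and the extracellular matrix stood higher with Nanog in 11 of 12 tested members, with a median of 1.02 and 3 called rises, those of Eln, Col1a1 and Sparc. 1 of the 12 met the detection rule through the arrays with Nanog alone, which favoured a higher value with Nanog. Eln, which encodes elastin, read 5.39 and 6.39 in intestine and 6.33 and 7.19 in colon without Nanog, and 7.81 and 7.80 in intestine and 10.17 and 9.80 in colon with Nanog. The rise of 2.57 ± 0.35 log2 units (SE, adjusted p = 0.0139) was without overlap of the sides, and the colon arrays with Nanog were highest. Col1a1, a chain of type I collagen, read 5.63 and 7.0 in intestine and 7.60 and 7.49 in colon without Nanog, and 7.93 and 7.66 in intestine and 10.13 and 10.77 in colon with Nanog, and rose by 2.19 ± 0.38 log2 units (SE, adjusted p = 0.0317), with the lowest array with Nanog only 0.06 log2 units above the highest control. Sparc, a matrix protein that binds collagen, rose by 1.58 ± 0.31 log2 units (SE, adjusted p = 0.0441). Outside that list, Mfap4, a protein of elastic fibres, rose by 2.06 ± 0.39 log2 units (SE, adjusted p = 0.0397). The collagens Col3a1 at 1.41 and Col5a1 at 1.15, the proteoglycan Lum at 1.82 and the fibroblast receptors Pdgfra at -0.03 and Pdgfrb at 0.10 were not called. Lox, also outside it, the enzyme that cross-links collagen and elastin, had an uncalled difference of 3.23 ± 0.88 (SE, adjusted p = 0.109). Smooth muscle genes showed no call, with 5 of 8 higher and a median of 0.19. Eln missed the threshold without colon control 2, colon Nanog 1 or colon Nanog 2 (up to 0.0570), and Col1a1, Mfap4 and Sparc passed in 2, 2 and 1 of the 8 fits with an array left out, with adjusted p up to 0.116, 0.141 and 0.152, each losing the call without any 1 of the colon arrays.

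Circadian genes, which keep daily time in most cells through a loop of activators and repressors, changed in both directions. Of 13 tested, 1 rose, 2 fell and the median was -0.68. Dbp, an output factor that binds D-boxes, read 12.54 and 11.26 in intestine and 12.31 and 10.83 in colon without Nanog, and 8.22 and 7.19 in intestine and 9.22 and 7.95 in colon with Nanog. The sides were 1.61 log2 units apart at their closest, and Dbp fell by 3.59 ± 0.50 log2 units (SE, adjusted p = 0.0139). Nfil3, a repressor that binds the same sites, read 7.15 and 8.06 in intestine and 5.93 and 7.49 in colon without Nanog, and 9.48 and 8.97 in intestine and 9.17 and 9.82 in colon with Nanog, and rose by 2.20 ± 0.42 log2 units (SE, adjusted p = 0.0397). Per2, a core repressor, fell by 1.33 ± 0.22 log2 units (SE, adjusted p = 0.0245). Of those not called, the activator Arntl was at 1.30, Cry2 at 0.78, Tef at -1.11 and the repressor Nr1d1 at -1.51. The sources used here do not state the time of day of sampling. Dbp missed the threshold without colon control 1 or colon Nanog 2 (adjusted p up to 0.0646), Nfil3 without intestine control 1, intestine Nanog 1, intestine Nanog 2 or any 1 of the colon arrays (up to 0.131) and Per2 without intestine control 1, intestine Nanog 2, colon control 1, colon Nanog 1 or colon Nanog 2 (up to 0.0953).

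Id proteins are inhibitors of basic helix-loop-helix factors and are standard targets of BMP signalling, which opposes stem cell character toward the gut surface. All 8 tested genes of this group stood lower with Nanog, with a median of -1.12, and 4 of them fell past the threshold. 1 of the 8 met the detection rule through the arrays without Nanog alone, which favoured a lower value with Nanog. A further 5 members on the array did not meet it. Id1 read 9.78 and 9.98 in intestine and 10.69 and 11.23 in colon without Nanog, and 8.11 and 8.10 in intestine and 8.64 and 8.12 in colon with Nanog. The arrays with Nanog spanned 0.54 log2 units and the highest of them was 1.14 below the lowest control, and Id1 fell by 2.17 ± 0.23 log2 units (SE, adjusted p = 0.00629). Id4 read 7.13 and 6.93 in intestine and 8.97 and 8.51 in colon without Nanog, and 5.22 and 5.49 in intestine and 5.93 and 6.38 in colon with Nanog, and fell by 2.13 ± 0.24 log2 units (SE, adjusted p = 0.00787). Id3 fell by 1.30 ± 0.18 log2 units (SE, adjusted p = 0.0139), again with no overlap. Smad6, an inhibitor that BMP signalling induces against itself, read 8.00 and 7.40 in intestine and 7.56 and 7.64 in colon without Nanog, and 6.28 and 6.02 in intestine and 5.91 and 5.64 in colon with Nanog, and fell by 1.69 ± 0.18 log2 units (SE, adjusted p = 0.00699). Id2 at -0.95, the ligand Bmp4 at -0.82, the hedgehog inhibitor Hhip at -0.23 and the receptor Bmpr1a at -0.07 were not called. Id1, Id4 and Smad6 passed whichever array was left out, with adjusted p up to 0.0285, 0.0370 and 0.0359, and Id3 missed the threshold without any 1 of the colon arrays (up to 0.0623).

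Transcription factors of the gut epithelium held 1 rise and 1 fall among 10 tested, with a median of -0.60. Klf4, a factor of differentiated surface cells and also a pluripotency factor, read 10.18 and 10.55 in intestine and 11.28 and 10.78 in colon without Nanog, and 8.23 and 8.63 in intestine and 9.65 and 9.68 in colon with Nanog. The sides did not overlap, and Klf4 fell by 1.65 ± 0.21 log2 units (SE, adjusted p = 0.0119). Other probes of Klf4, detected on 7 and 8 arrays, were at -2.20 and -2.11 (adjusted p = 0.000900 and 0.000632). Nr5a2, a nuclear receptor of crypts that also drives local glucocorticoid synthesis in the gut, read 5.68 and 5.60 in intestine and 5.67 and 5.83 in colon without Nanog, and 7.16 and 6.99 in intestine and 6.97 and 6.53 in colon with Nanog, and rose by 1.22 ± 0.17 log2 units (SE, adjusted p = 0.0139). The homeobox factor Cdx2, which sets intestinal identity, read 12.13 and 10.05 in intestine and 10.20 and 10.28 in colon without Nanog, and 9.95 and 8.88 in intestine and 6.85 and 6.0 in colon with Nanog. Its sides did not overlap but replicate 1 of intestine without Nanog stood 1.84 above the next control, and its difference of -2.75 ± 0.58 (SE, adjusted p = 0.0562) was not called, or adjusted p = 0.0320 with the replicate number as a block within tissue and 0.0314 with it over both tissues. Hnf4a at -0.90, Foxa3 at -0.95, Gata6 at -0.35 and Cdx1 at 0.03 were not called. Klf4 missed the threshold without colon control 1 (adjusted p = 0.0577) and Nr5a2 without intestine Nanog 2, colon control 1, colon control 2 or colon Nanog 1 (up to 0.0679). Outside that list, Klf6, a related zinc-finger factor, fell by 1.71 ± 0.25 log2 units (SE, adjusted p = 0.0142) and Zfpm1, the GATA cofactor FOG1, by 1.89 ± 0.24 log2 units (SE, adjusted p = 0.0119). A second probe of Klf6, detected on 5 arrays, was at -1.02 (adjusted p = 0.182), and the mean of both was not called (adjusted p = 0.0557). Klf6 missed the threshold without intestine Nanog 2, colon control 1, colon control 2 or colon Nanog 2 (up to 0.0641) and Zfpm1 without colon control 1 (adjusted p = 0.0513).

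Among signals that pattern the crypt, 2 genes fell. Ihh, the hedgehog ligand that epithelium sends to the mesenchyme below, read 8.47 and 7.72 in intestine and 8.60 and 8.12 in colon without Nanog, and 6.46 and 6.57 in intestine and 6.65 and 6.80 in colon with Nanog. The highest array with Nanog was 0.91 log2 units below the lowest control, and Ihh fell by 1.61 ± 0.20 log2 units (SE, adjusted p = 0.0120). Hes1, the main effector of Notch in crypts, read 8.74 and 8.29 in intestine and 9.67 and 9.18 in colon without Nanog, and 7.33 and 7.28 in intestine and 8.23 and 8.00 in colon with Nanog, and fell by 1.26 ± 0.18 log2 units (SE, adjusted p = 0.0139), the only call among 9 tested Notch pathway genes, of which 8 stood lower (median -0.35). The 5 tested Wnt targets and stem cell genes all stood lower (median -1.13) and none was called, with Axin2 at -1.55 ± 0.41 (SE, adjusted p = 0.100), or adjusted p = 0.0274 with the replicate block within tissue and 0.0530 with it over both tissues. Ccnd1 was at -1.52, Sox9 at -1.13, Cd44 at -0.56 and Lrig1 at -0.27. The other 12 of the 17 genes of that list on the array, among them Lgr5, Ascl2 and Olfm4, did not meet the detection rule. Among the 9 Notch pathway genes, 1 met it through the arrays without Nanog alone, which favoured a lower value with Nanog. Of 16 genes of the pluripotency network 2 were tested, Tbx3 at -1.22 ± 0.27 (SE, adjusted p = 0.0675), or adjusted p = 0.0403 with the replicate block within tissue and 0.0369 with it over both tissues, and Dppa5a at -0.05. Ihh missed the threshold without colon control 1 or colon Nanog 2 (up to 0.0525), and Hes1 without intestine Nanog 2 or any 1 of the colon arrays (up to 0.0644).

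The largest called fall was that of Igsf9. Igsf9, an immunoglobulin-domain adhesion protein, read 13.05 and 11.13 in intestine and 11.18 and 10.71 in colon without Nanog, and 9.27 and 7.43 in intestine and 7.43 and 7.24 in colon with Nanog, and fell by 3.67 ± 0.48 log2 units (SE, adjusted p = 0.0139). Its highest array with Nanog, replicate 1 of intestine, was 1.44 below the lowest control. Ly6g6c, a small surface protein of the Ly6 family, fell by 2.45 ± 0.47 log2 units (SE, adjusted p = 0.0408), Cyp2s1, an epithelial cytochrome P450, by 1.64 ± 0.23 log2 units (SE, adjusted p = 0.0139), and Rhof, a small GTPase that makes filopodia, by 1.94 ± 0.26 log2 units (SE, adjusted p = 0.0139). Cyp27a1, the mitochondrial enzyme that oxidizes the cholesterol side chain in bile acid synthesis, went the other way and rose by 2.25 ± 0.30 log2 units (SE, adjusted p = 0.0139), with all 4 arrays with Nanog at 10.80 to 11.55 and the controls at 8.37 to 9.90. Igsf9 missed the threshold without colon control 1, colon control 2 or colon Nanog 2 (up to 0.0623), and Ly6g6c, Cyp2s1, Rhof and Cyp27a1 passed in 2, 4, 5 and 4 of the 8 fits with an array left out, with adjusted p up to 0.118, 0.0623, 0.0623 and 0.0623.

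All 12 tested genes of mitosis stood higher with Nanog (median 0.47), but 1 was called, Nusap1, a protein that bundles spindle microtubules, which rose by 1.40 ± 0.21 log2 units (SE, adjusted p = 0.0172). Of 22 tested DNA replication genes 15 stood lower (median -0.20) and 1 was called, Mcm6, a subunit of the replicative helicase. 2 of the 22 met the detection rule through the arrays without Nanog alone, which favoured lower values with Nanog. Mcm6 read 9.63 and 9.29 in intestine and 9.01 and 9.67 in colon without Nanog, and 8.16 and 7.81 in intestine and 7.39 and 7.34 in colon with Nanog, without overlap of the sides, and fell by 1.72 ± 0.21 log2 units (SE, adjusted p = 0.0109). Its 2 other probes, detected on all 8 arrays, were at -1.14 (adjusted p = 0.0340) and -0.91 (adjusted p = 0.0505). The other tested helicase subunits Mcm2, Mcm5 and Mcm4 were at -0.64, -0.49 and -0.39. Of 11 tested p53 targets 2 rose, Trp53inp1, a stress-induced regulator of autophagy, by 1.65 ± 0.24 log2 units (SE, adjusted p = 0.0142) and Pmaip1, the pro-death protein Noxa, by 1.47 ± 0.22 log2 units (SE, adjusted p = 0.0172), and the median was 0.27. The classical targets Cdkn1a and Mdm2 were at 0.33 and -0.40. Of 7 tested immediate early genes, which respond within minutes to growth factors or handling, 6 stood lower (median -0.98) and Egr1 fell by 1.59 ± 0.30 log2 units (SE, adjusted p = 0.0395). 1 of the 7 met the detection rule through the arrays without Nanog alone, which favoured a lower value with Nanog. With an array left out, Mcm6 reached an adjusted p of 0.0513 without colon Nanog 2, Trp53inp1 up to 0.0675 without intestine Nanog 2, colon control 2 or colon Nanog 2, Pmaip1 and Nusap1 up to 0.0786 and 0.0826 without any 1 of the colon arrays, and Egr1 up to 0.129 without intestine Nanog 1, intestine Nanog 2 or any 1 of the colon arrays.

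Markers of immune cells held few calls. All 7 tested MHC class II genes, which present antigen on dendritic cells, B cells and macrophages, stood lower with Nanog (median -1.47), 2 of them having met the detection rule through the arrays without Nanog alone. Ciita, the factor that switches them on, read 7.04 and 5.65 in intestine and 7.28 and 6.61 in colon without Nanog, and 4.93 and 4.43 in intestine and 4.33 and 4.26 in colon with Nanog. It was below background on all 4 arrays with Nanog, at least 2.83-fold lower (adjusted p = 0.0245), or 1.63-fold without background correction, where it was not called (adjusted p = 0.0713). The other 6 were between -2.01 for H2-DMb1 and -1.30 for H2-Eb1, not called. H2-M2, a non-classical MHC gene, fell by 2.19 ± 0.42 log2 units (SE, adjusted p = 0.0397). Among B and plasma cell genes 3 of the 4 tested, and among T cell genes 4 of the 5 tested, met the detection rule through the arrays without Nanog alone, which favoured lower values with Nanog. Their medians were -1.73 and -0.36, none was called, and Mzb1 was just short of the threshold at -2.34 ± 0.47 (SE, adjusted p = 0.0501). All 6 tested macrophage genes stood higher (median 0.52) with none called, Mrc1 being at 1.22 ± 0.30 (SE, adjusted p = 0.0895), or adjusted p = 0.0377 with the replicate block within tissue and 0.0351 with it over both tissues. Ms4a6d, a membrane protein of macrophages, rose by 2.34 ± 0.47 log2 units (SE, adjusted p = 0.0492). Of 6 mast cell genes on the array 2 met the detection rule, both through the arrays with Nanog alone, which favoured higher values with Nanog. The other 4 did not meet it. Of the 2, Cpa3, a protease of mast cells, rose by 2.43 ± 0.44 log2 units (SE, adjusted p = 0.0357), and 1 was not called.

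Of 6 markers of the mesothelium, the outer lining of the gut, 2 met the detection rule, both through the arrays without Nanog alone, and 4 did not. Both of the 2 were called falls, a direction that the rule favoured. Upk3b read 7.86 and 6.11 in intestine and 7.38 and 7.58 in colon without Nanog, and 4.41 and 4.39 in intestine and 4.46 and 4.41 in colon with Nanog. It was below background on all 4 arrays with Nanog, at least 4.27-fold lower (adjusted p = 0.0109), or 2.12-fold without background correction, and Upk1b fell by 1.16 ± 0.18 log2 units (SE, adjusted p = 0.0224). Adipocyte genes had a median of -1.20 over 5 tested with none called. 2 of the 5, Adipoq and Car3, met the detection rule through the arrays without Nanog alone, which favoured lower values with Nanog. A further 4 markers on the array did not meet it. The hormone Adipoq was at -2.76 ± 0.68 (SE, adjusted p = 0.0869), or adjusted p = 0.0206 with the replicate block within tissue and 0.0552 with it over both tissues, and Car3 at -2.17 ± 0.70 (SE, adjusted p = 0.157). Of 8 tested enteroendocrine genes 6 stood higher (median 0.90). Chga, the granule protein chromogranin A, read 6.21 and 7.03 in intestine and 6.20 and 6.37 in colon without Nanog, and 7.89 and 8.15 in intestine and 8.10 and 8.26 in colon with Nanog, with no overlap, and rose by 1.65 ± 0.22 log2 units (SE, adjusted p = 0.0139), while the hormones Gcg, Sst and Pyy were at 1.53, 0.96 and 0.84 and were not called. Hba-a1, a haemoglobin chain of red blood cells, was at 1.92 ± 0.49 (SE, adjusted p = 0.0899). With an array left out, Upk3b reached an adjusted p of 0.0502 without colon control 2, Chga up to 0.0623 without any 1 of the colon arrays, Upk1b up to 0.0916 without intestine Nanog 2 or any 1 of the colon arrays, Ciita up to 0.0953 without intestine control 1, intestine Nanog 2 or any 1 of the colon arrays and Cpa3 up to 0.114 without intestine control 1, intestine Nanog 1, intestine Nanog 2 or any 1 of the colon arrays. H2-M2 and Ms4a6d passed in 2 and 2 of these 8 fits, with adjusted p up to 0.139 and 0.151.

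Several large groups showed no call. None of 52 tested ribosomal protein genes and none of 70 tested subunits of oxidative phosphorylation was called, with medians of 0.01 and 0.06, the second of which was -0.09 under median scaling. The 13 genes of the unfolded protein and amino acid stress responses had a median of -0.08, 10 heat shock genes -0.23, 9 interferon response genes -0.20, 12 cholesterol synthesis genes -0.51 and 7 hypoxia and glycolysis genes -0.08. Among epithelial cell types, 9 general gut epithelium markers had a median of -0.48, 6 goblet cell genes -0.36, 4 enterocyte genes -0.35, and 2 Paneth cell and 2 colonocyte genes -0.29 and -0.15. The 6 endothelial genes had a median of -0.01. Spink4 of goblet cells was at 0.87 ± 0.29 (SE, adjusted p = 0.172), or adjusted p = 0.0444 with the replicate block within tissue and 0.155 with it over both tissues. Of the 7 listed genes of enteric neurons and glia 4 were on the array, and none of these met the detection rule.

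**Figure D4:**
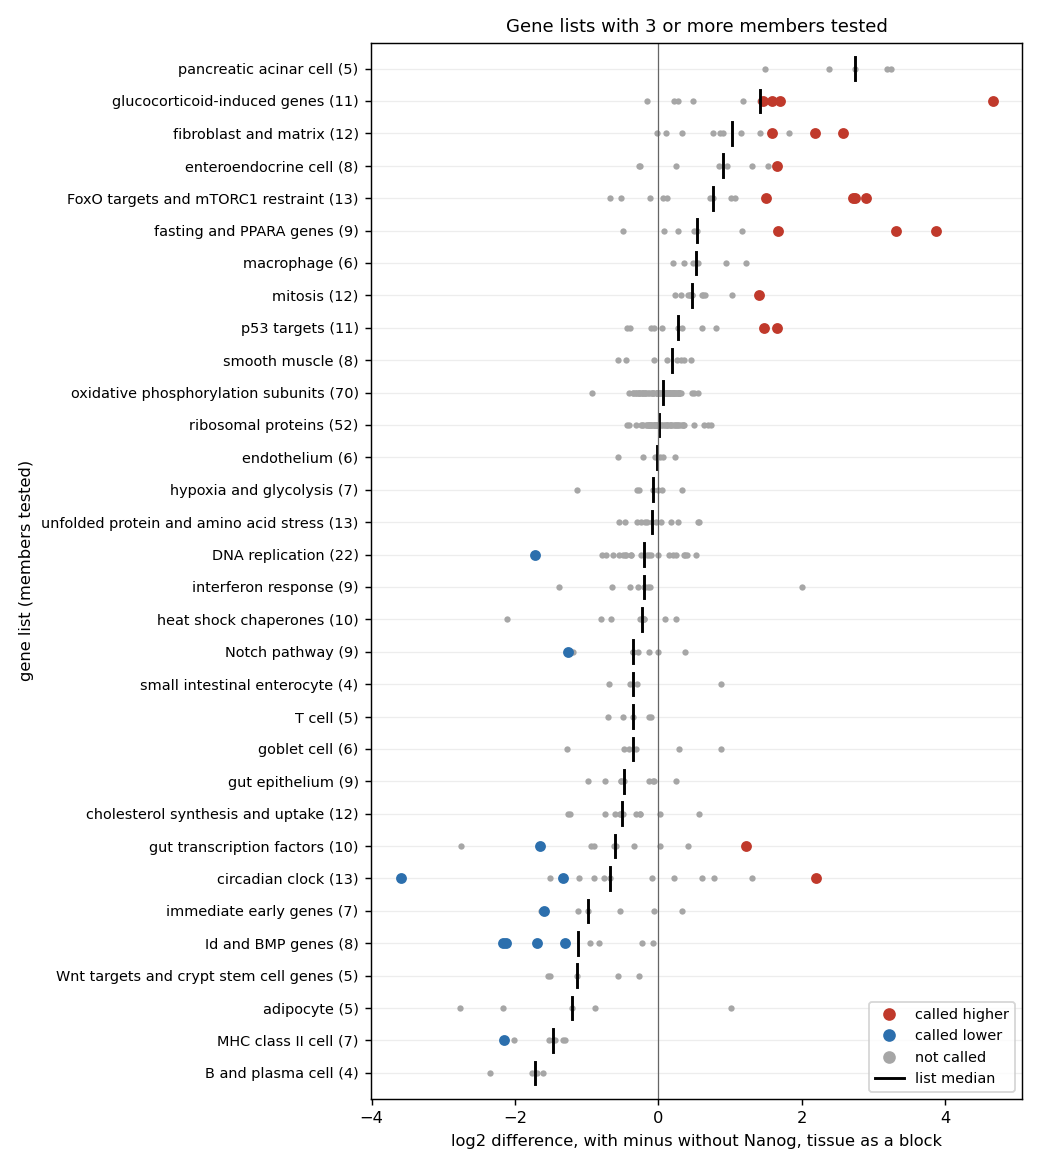
Log2 difference with minus without Nanog (x axis) of each tested member of the gene lists with 3 or more members tested (y axis, number tested in parentheses), with called members coloured and the median as a bar. Id and BMP genes lie wholly below 0 with 4 called, glucocorticoid-induced genes mostly above 0 with 4 called, and ribosomal proteins centre on 0.01.

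Some of the largest differences were not called and had a wide spread between the arrays of a group. The 5 tested pancreatic genes had a median of 2.74, all higher with Nanog and none called. 2 of the 5, Rnase1 and Pnliprp2, met the detection rule through the arrays with Nanog alone, which favoured higher values with Nanog. A further 12 markers on the array did not meet it. Rnase1, pancreatic ribonuclease, read 7.84 and 10.97 in intestine and 4.46 and 7.56 in colon without Nanog, and 8.58 and 14.17 in intestine and 7.38 and 13.69 in colon with Nanog, where replicate 2 exceeded replicate 1 in each group, and its difference was 3.25 ± 1.69 (SE, adjusted p = 0.360). Pnliprp2, a lipase, was at 3.19 ± 1.17 (SE, adjusted p = 0.201). Reg1, a secreted lectin of pancreas and gut, was at 14.54, 14.08 and 14.38 on 3 of the 4 replicates 2 and at 4.40 to 7.95 on the other 5 arrays, with a difference of 2.82 ± 2.26 (SE, adjusted p = 0.547). Cldn10, a tight junction protein, was at 2.85 ± 0.68 (SE, adjusted p = 0.0775). Of the uncalled falls, the chloride channel regulator Clca4a was at -3.05 ± 0.98 (SE, adjusted p = 0.155) and the adhesion protein Tns4 at -2.27 ± 0.70 (SE, adjusted p = 0.147), or adjusted p = 0.0403 and 0.0481 with the replicate block within tissue and 0.103 and 0.0705 with it over both tissues.

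Whether the pooled difference stood for both tissues was asked with a mean per group. The difference between the colon effect and the intestine effect was called in 0 of 7444 genes (0%) by limma, with 280 at an unadjusted p under 0.05 (3.76%). It was called in 3 genes without replicate 1 of intestine without Nanog. With 2 arrays per group this difference is estimated less precisely than the pooled one, so 0 calls do not show equal effects. Among the 131 genes 9 had an interaction p under 0.05 unadjusted, or 6.87%. The median difference of the called rises was 1.44 in intestine and 1.57 in colon, and that of the called falls -1.33 and -1.43. In the same genes the test within intestine alone called 13 (0.175%) and within colon alone 18 (0.242%), and 116 of the 131 were called in neither tissue alone. 46 of the 131 (35.1%) also differed between colon and intestine over both sides, against 15.7% of all genes. Both terms share 1 fit and its estimate of spread, so genes called for Nanog were favoured to pass for tissue as well.

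The 9 called genes with an unadjusted interaction p under 0.05 differed in size between tissues, not in direction. Eif4ebp3 rose by 3.67 ± 0.30 (SE) in intestine and 1.83 ± 0.30 (SE) in colon. In the same order, intestine first, Ddit4 had 3.36 and 2.07, Angptl4 4.34 and 2.28, Fkbp5 5.37 and 3.96 and Csrp1 5.44 and 4.43, all larger in intestine. Larger in colon were the rises of Mfap4, with 1.20 and 2.91, Sgk1, with 0.94 and 1.98, and Sparc, with 0.98 and 2.18, and the fall of Rhof, with -1.35 and -2.52. The unadjusted interaction p-values of Eif4ebp3, Ddit4, Angptl4, Rhof, Mfap4, Fkbp5, Sgk1, Sparc and Csrp1 were 0.00298, 0.00830, 0.0114, 0.0150, 0.0154, 0.0396, 0.0406, 0.0435 and 0.0478, and none passed after adjustment over all genes.

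**Figure D5:**
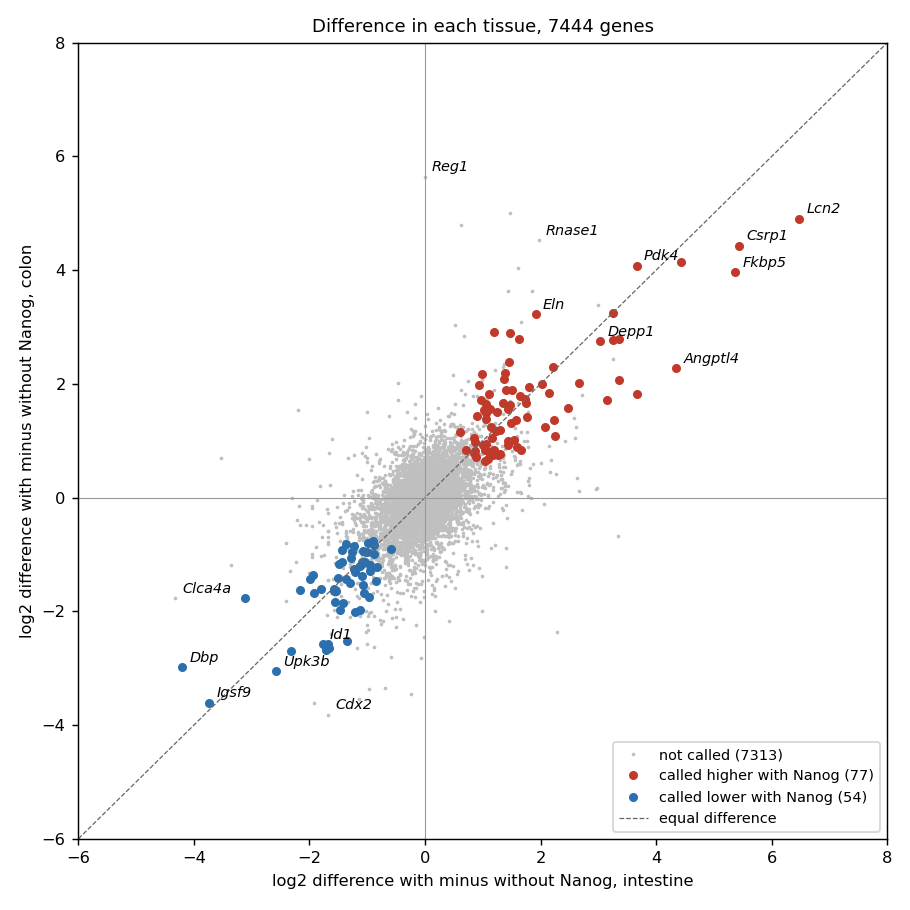
Log2 difference with minus without Nanog in intestine (x axis) and colon (y axis) of the 7444 genes, with the 77 called rises in red, the 54 called falls in blue and the line of equal difference dashed. All called genes lie in the quadrants where both tissues moved the same way, while uncalled genes such as Reg1 and Cdx2 lie far from the line.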

How the data were processed

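The deposited table without normalization gives each probe's mean bead intensity on 8 arrays, neither background-subtracted nor scaled, beside a detection p-value, also deposited. BeadStudio 3.2, lumi and RMA are the tools listed in the submitters' processing notes, whose order and settings are unknown here. The authors' own normalized values, on a log2 scale, served as an alternative. Background correction used limma's normexp method (version 3.58.1, R 4.3.3), which here inferred the level of negative control beads from the detection p-values, and added an offset of 16. Quantile normalization and log2 followed.

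The brightest of a gene's probes with detection p under 0.01 on all 4 arrays of a side stood for the gene. 23978 of 25697 probes had a gene symbol in the array's annotation, updated to GRCm38.p6, and 1719 had none. The fit held Nanog and tissue (5 residual and 3.54 prior degrees of freedom, prior SD 0.287), and effects within a tissue and their difference came from a mean per group (4 residual degrees of freedom). No sample was left out. The number of arrays limits the precision, and the files name no slide or date.

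The members, the gene lists and most tests were chosen with earlier results of these data known. Genes named are Nanog, the 12 largest called rises and falls detected on all 8 arrays, the 6 largest in each direction among other called genes and among uncalled genes, the 5 smallest p in each direction, up to 4 called members of each list (or its smallest p), the 3 called genes in each direction with the smallest interaction p, and the genes nearest the detection threshold. Such a list is described by counts and its median, with no test. Reported values and calls come from the fit without a replicate block. Deviations from the group mean of arrays with the same replicate number correlated with r = 0.401 in intestine, 0.102 in colon, and between tissues 0.297 without and 0.264 with Nanog, so fits with the number as a block are given where they change a call. This pairing comes from the data and not from the labels. Alternatives covered normalization, background, filter, probe choice, spread, block and arrays left out.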

Additional observations from a re-analysis of the deposited data

Results flagged for a closer look

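In 7 of 234 groups of 4 arrays scanned, 1 array lay far from the other 3 by Dixon's gap criterion at its 95% level. Chance alone flags about 1 group in 20 where the 4 arrays are alike. Each group here joined intestine and colon, and many of the genes were chosen for their values, so that rate need not hold. Among arrays with Nanog these were Ms4a6d at 10.53 on replicate 2 of colon (others 8.59 to 8.73), Id1 at 8.64 on replicate 1 of colon (8.10 to 8.12) and Igsf9 at 9.27 on replicate 1 of intestine (7.24 to 7.43). Among arrays without Nanog they were Cyp27a1 at 9.90 and Cdx2 at 12.13 on replicate 1 of intestine (others 8.37 to 8.62 and 10.05 to 10.28). On replicate 2 of intestine without Nanog, Ceacam20, from the colonocyte list, stood at 6.33 (others 8.65 to 8.78, highest on replicate 1 of intestine). The mean of the FoxO and mTORC1 genes on that array was 7.63 (others 7.99 to 8.06).

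Probes without a gene name gave signals that no comparison of named genes holds. 11 of them passed the threshold. The largest rises were 7.81 log2 units for ILMN_2923874 and 3.35 for ILMN_1238042, and the single fall was that of ILMN_2655163, with -0.92. What these probes read was not tested.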

How the results depend on the processing

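Against 131 called genes, the count was 39 without a detection filter (16590 genes tested), 409 with array weights (184 higher and 225 lower), 6 with a 2-fold minimum, and between 22 and 339 with single arrays left out. With the replicate number as a block it was 242 within each tissue and 199 over both tissues, and the block within tissue changed the call of no named gene other than the 8 given with it in the text, 3 of which (Mrc1, Tbx3 and Cdx2) were also called with the block over both tissues. Without replicate 2 of both Nanog groups it was 8 and with the pancreatic covariate 19, 2 fits chosen after the data were seen. The authors' values gave 128, and the other scalings, filters, probe rule and spread estimates between 89 and 141. The count of genes with different effects in the tissues was between 0 and 3 with single arrays left out and 0 in the other fits. Of 53 named called genes, 11 were not called without background correction (Hp, Cpa3, Ms4a6d, Col1a1, Mfap4, Acot1, Sparc, Egr1, Ciita, H2-M2 and Ly6g6c), 8 of these also with an offset of 50 (all but Col1a1, Acot1 and Egr1), and 4 with the mean of a gene's probes (Acot1, Sparc, Sesn1 and Klf6). With arrays left out no called gene could change sign, and no called gene named here changed sign in the other fits. Differences that did were those of Aebp2 (-0.071 to 0.24 with single arrays left out), Ceacam20 (-0.12 to 0.86), Ang4 (-1.46 to 0.27, and 0.34 without both Nanog replicates 2 and 0.37 with the covariate), Reg1 (-0.53 and -1.17 in these 2 fits) and Rnase1 (-0.078 with the covariate). The cause of these changes in count and sign was not tested. The median of 11 of 39 gene lists changed sign in some fit. A slide block was not run, since the files name no slide. With 2 arrays per group, probes near background have the least precise differences.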
